A study of Mus musculus with 2 samples.

Results

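Krüppel-like factors (KLFs) are the subject here, namely the 10 genes Klf2, Klf3, Klf4, Klf6, Klf7, Klf9, Klf10, Klf11, Klf13 and Klf16. The members were given by name, and each was read from the array probe set whose annotation lists that gene alone. All 10 were measured, each by 1 probe set, out of 19935 genes measured in all. The list was drawn up with the difference between the arrays already known, so the differences below are a description of the members and support nothing by themselves.

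KLFs are transcription factors that bind GC-rich and CACCC sequences through 3 zinc fingers at their carboxyl end. They share these fingers with the SP factors, while the rest of each protein differs and recruits either activators or repressors. In blood cells they are known for roles in quiescence, differentiation and survival, and several of them are rapidly induced by growth factors, cytokines or stress. By the partners they recruit, KLFs are commonly sorted into repressors that bind CtBP, factors that mainly activate, and repressors that bind SIN3A.

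The study compared Ba/F3 cells, an IL-3-dependent mouse pro-B-like line, that expressed BCR-ABL, the fusion kinase of chronic myeloid leukaemia, and were exposed to imatinib, an inhibitor of that kinase. The array called with IL-3 came from live cells supplied with interleukin-3 (IL-3), and the array called without IL-3 from live cells grown without it. Both cultures carried BCR-ABL constitutively, were kept in RPMI medium with 10% serum and, per the treatment protocol, received 5 µM imatinib during 6 h. The submitters regarded cells without IL-3 as sensitive to imatinib and cells with IL-3 as resistant, and asked how their expression profiles differ. Each condition had 1 array, so the comparison is between 2 arrays of 1 cell line with no replicate, and no p-value or SD between the conditions can be given. The labels are not uniform. The title and source name of the first array give IL-3 whereas its description gives none, and the source name of the second array can be read as lacking imatinib. Directions follow the titles and the treatment protocol. If the titles of the arrays were exchanged, every sign below would turn. If the second array lacked imatinib, the arrays would differ in the drug as well, and the part of IL-3 in a difference could not be told apart from it.

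Values are those the authors deposited, taken as log2, and are relative to a baseline that each probe set has and that is not given. They carry no expression level, so whether a KLF was expressed at all cannot be read from them, nor can the levels of different genes be compared. Each difference is the value with IL-3 less the value without it, and the baseline cancels in it. The only error that the arrays provide is the scatter between probe sets of the same gene. Over the 998 genes with several probe sets, this difference had a pooled SD of 0.14, which covers measurement within these arrays only. Over all genes the median difference was 0.04. In RNA from whole cultures, fewer cells of a type and less RNA per cell cannot be told apart.

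Promoter sequence from RefSeq was at hand for 8 of the 10 members, without Klf10 and Klf16, as the 250 bases before a start of the gene. The stretches are printed because they belong to members at different places in the order of differences. Klf6, Klf3 and Klf11 were among the 4 members with the largest differences, Klf9 lay in the middle, and Klf2 differed little. Capitals mark matches to any of the motifs searched on both strands, which were the CACCC box (CACCC), the GC box (GGGCGG), the core of the cyclic AMP response element (TGACG), the FOXO site (GTAAACA), the STAT site (TTCNNNGAA), the CArG box bound by SRF, and the MEF2 site. All are written 5′ to 3′ on the plus strand of build GRCm38.p6, which is the strand of each of these genes, and end at the base before the start except for Klf2, whose stretch ends 91 bases before it. They lie at chr13:5861239-5861488 for Klf6, chr5:64803271-64803520 for Klf3, chr12:24651121-24651370 for Klf11, chr19:23141116-23141225 for Klf9 and chr8:72318932-72318971 for Klf2.
Klf6: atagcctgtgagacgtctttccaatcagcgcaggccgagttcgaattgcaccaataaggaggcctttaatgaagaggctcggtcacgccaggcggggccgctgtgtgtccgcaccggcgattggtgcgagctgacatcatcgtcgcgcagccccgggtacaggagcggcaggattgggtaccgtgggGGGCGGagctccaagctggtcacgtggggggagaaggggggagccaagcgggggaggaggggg
Klf3: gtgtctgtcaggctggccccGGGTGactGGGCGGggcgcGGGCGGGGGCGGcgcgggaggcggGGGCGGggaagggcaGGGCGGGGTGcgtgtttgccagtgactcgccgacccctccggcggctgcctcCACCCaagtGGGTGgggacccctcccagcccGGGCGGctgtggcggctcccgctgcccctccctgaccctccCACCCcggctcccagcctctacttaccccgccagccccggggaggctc
Klf11: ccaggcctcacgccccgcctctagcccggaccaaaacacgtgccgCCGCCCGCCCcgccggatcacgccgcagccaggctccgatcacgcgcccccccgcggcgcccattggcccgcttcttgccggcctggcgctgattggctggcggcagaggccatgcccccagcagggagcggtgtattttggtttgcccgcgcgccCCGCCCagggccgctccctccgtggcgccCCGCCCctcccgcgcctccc
Klf9: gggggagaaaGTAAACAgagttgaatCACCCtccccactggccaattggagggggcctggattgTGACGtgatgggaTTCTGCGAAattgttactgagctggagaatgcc
Klf2: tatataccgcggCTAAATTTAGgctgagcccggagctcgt

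The upstream stretches of the 8 members were rich in G and C. Their GC content ran from 59.2% for Klf7 to 78.4% for Klf3, above the median of 52.4% over all 32851 windows of this length. GC boxes were present in 7 of the 8 stretches, with Klf9 as the exception, against 32.7% of all windows. Klf3 held 6 matches to the GC box and 5 to the CACCC box, where overlapping matches were counted separately. Klf11 and Klf4 held 4 GC boxes each, and Klf6 held 1, which began 63 bases before the start. CACCC boxes were found in 5 of the 8 (Klf2, Klf3, Klf7, Klf9 and Klf13), against 52% of all windows.

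Motifs of signalled factors were fewer. The core of the cyclic AMP response element occurred in Klf2, Klf4, Klf9 and Klf13 (17.8% of all windows), and in none of Klf3, Klf6, Klf7 and Klf11. Klf9 alone among the 8 held a FOXO site, 100 bases before its start (3.17% of all windows), and a STAT site, 33 bases before its start (7.02% of all windows). Klf2 alone held a MEF2 site, which began 118 bases before its start (0.508% of all windows). The CArG box was found in 0 of the 8 stretches and in 1.47% of all windows. These matches describe the letters of the window and were not tested as sites.

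Most of the 10 KLF genes had lower values with IL-3 than without it. The difference was below 0 for 8 members and above 0 for Klf4 and Klf16. It was at least 2-fold for Klf6 and Klf3, both lower with IL-3, and 0 members were at least 2-fold higher. The median difference of the 10 was -0.46, with a range from -1.47 to 0.23. Among all genes, 0.657% reached 2-fold on the side lower with IL-3, 0.441% reached it on the higher side, and 40.1% had a difference below 0. Because the members were listed with this contrast in view, nothing is read from their shares.

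**Figure D1:**
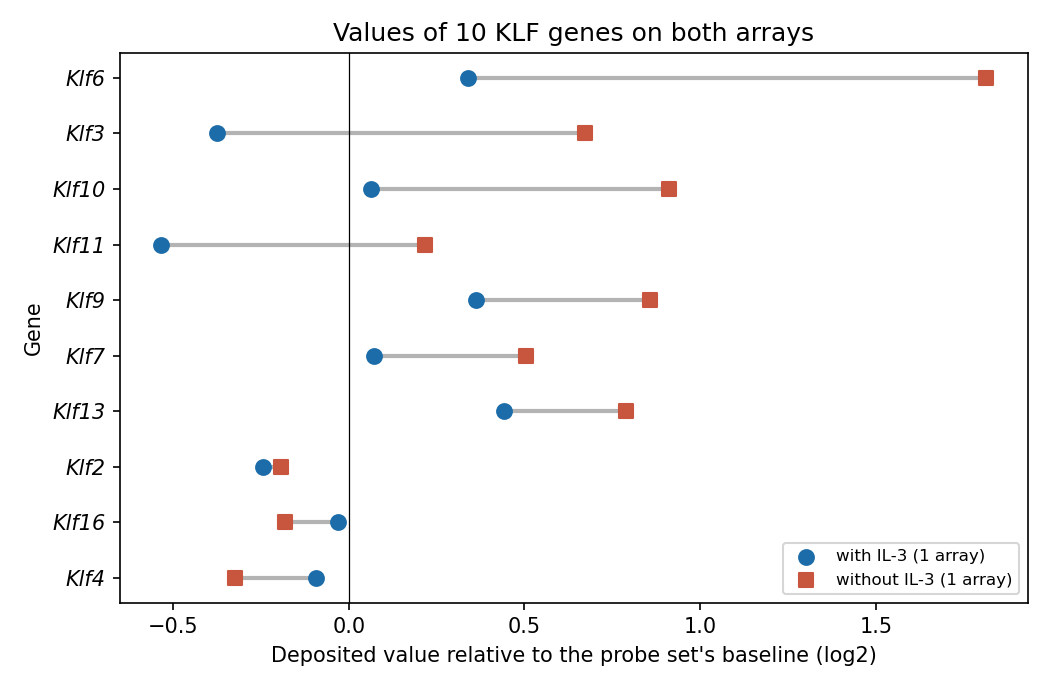
Deposited log2 value relative to the baseline (horizontal axis) of each KLF gene (rows, ordered by the difference) on the array with IL-3 (circles) and the array without IL-3 (squares), joined by a line. Klf6 has the longest line, from 0.34 with IL-3 to 1.81 without, and the circles lie to the right of the squares for Klf16 and Klf4.

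With IL-3 their values ran from -0.53 for Klf11 to 0.44 for Klf13, a width of 0.98, and without IL-3 they ran from -0.32 for Klf4 to 1.81 for Klf6, a width of 2.14. The second width rests on Klf6, without which it is 1.23. Over all genes the width was 5.28 with IL-3 and 4.26 without. Their median was 0.02 with IL-3 and 0.59 without. Values above the baseline were seen for 5 members with IL-3 and for 7 without, where 45.3% and 43.4% of all genes had such values. Each gene has its own baseline, so these widths describe departures from it.

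Klf6, on chromosome 13, encodes an activator first studied as a growth-regulating and injury-induced factor, and it is counted among the immediate early genes. Its value was 0.34 with IL-3 and 1.81 without, which makes it 2.78-fold lower with IL-3 (log2 difference -1.47). Ordered from the lowest difference, Klf6 ranked 37 among the 19935 genes. Its value without IL-3 lay at percentile 99.9 of all genes on that array. Percentiles here and below rank departures from each gene's own baseline, not expression levels. The value with IL-3 was also above the baseline, at percentile 77.3. Its upstream stretch, printed above, held a GC box as the sole motif among those searched.

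Klf7, a close relative of Klf6 known from neurons and from early T cells, had values of 0.07 with IL-3 and 0.50 without. It was 1.35-fold lower with IL-3 (-0.43). Klf2, which keeps lymphocytes quiescent and is controlled by the kinase ERK5 through MEF2 factors, had values of -0.25 with IL-3 and -0.19 without. That difference of -0.05 is smaller than the scatter between probe sets of 0.14. On the deposited scale the differences of the other 9 members exceeded that scatter. Klf4, a factor that restrains proliferation in many tissues and is used in reprogramming to pluripotency, had values of -0.09 with IL-3 and -0.32 without. It was 1.17-fold higher with IL-3 (0.23) and had the highest difference of the 10. The 4 members that mainly activate thus ran from the lowest to the highest difference of the whole list.

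Klf3, on chromosome 5, encodes a repressor that binds CtBP and acts in erythroid cells, B cells and adipocytes. The gene had a value of -0.38 with IL-3 and 0.67 without, and was 2.07-fold lower with IL-3 (-1.05). In contrast to Klf6, its values lay on opposite sides of the baseline. On the array with IL-3 it stood at percentile 4.2 of all genes, and on the array without IL-3 at percentile 92.3. It passed the 2-fold line by 0.05 on the log2 scale, which is less than the scatter between probe sets.

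The remaining 5 members encode repressors that bind SIN3A, and 4 of them were lower with IL-3. Klf10 and Klf11, which are also called TIEG factors after their induction by transforming growth factor beta, were next in the order after Klf3. Klf10 had values of 0.06 with IL-3 and 0.91 without, and was 1.80-fold lower with IL-3 (-0.85). Klf11 had values of -0.53 with IL-3 and 0.22 without, and was 1.68-fold lower (-0.75). The differences of these 2 genes were 0.09 apart, within the scatter between probe sets. Klf11 had the lowest value of all members with IL-3, at percentile 1.57 of all genes on that array.

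Klf9, a factor induced by glucocorticoid and thyroid hormones, had values of 0.36 with IL-3 and 0.86 without. It was 1.41-fold lower with IL-3 (-0.50). Klf13, which is known in lymphocytes as an activator of Ccl5 transcription, had values of 0.44 with IL-3 and 0.79 without, and was 1.27-fold lower (-0.35). Both stood above the baseline on each array, as did Klf6, Klf7 and Klf10. Klf16, a little-studied member of this group, had values of -0.03 with IL-3 and -0.18 without, and was 1.11-fold higher with IL-3 (0.15). That difference just exceeded the scatter between probe sets of 0.14, but it was 0.14, 0.13 and 0.12, all within that scatter, after median centring, quantile normalization and subtraction of a loess trend.

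In the order of differences, Klf6 was 0.43 below Klf3, where the scatter between probe sets of a single difference was 0.14. A gap between 2 genes carries the scatter of both, which is larger, and no gap was tested. Klf3 and Klf10 were 0.20 apart, Klf11 and Klf9 0.25, Klf13 and Klf2 0.29, and Klf2 and Klf16 0.20. The neighbours Klf10 and Klf11, Klf9 and Klf7, Klf7 and Klf13, and Klf16 and Klf4 were each closer than that scatter. With a line at 1.5-fold in place of 2-fold, Klf6, Klf3, Klf10 and Klf11 were lower with IL-3 and 0 members were higher, where 2.71% of all genes were lower and 3.52% higher.

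**Figure D2:**
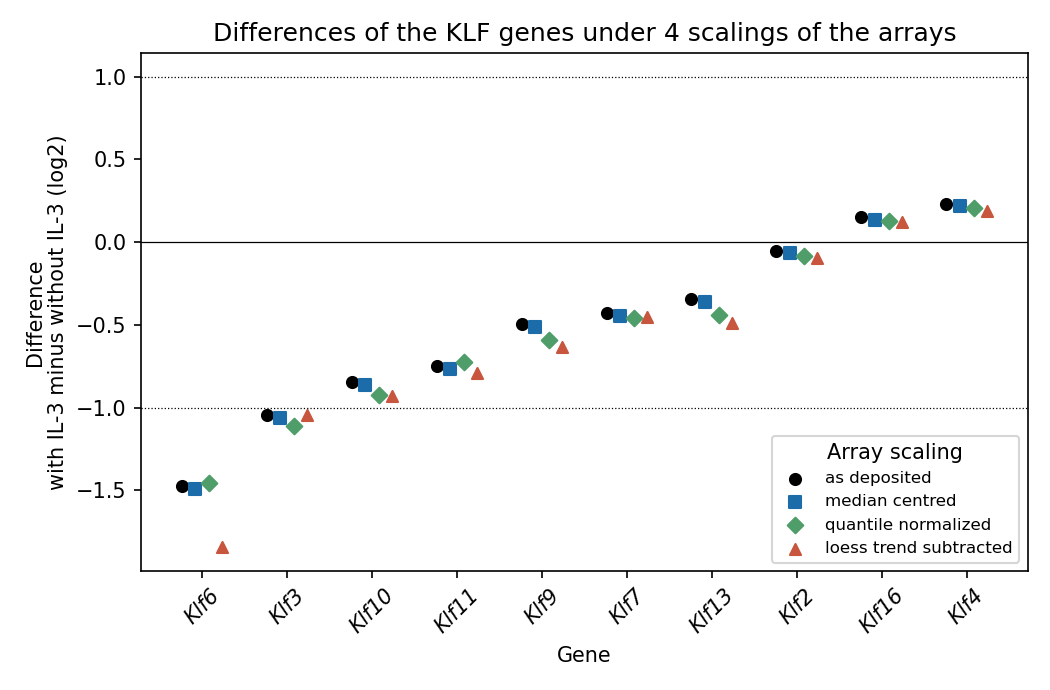
Log2 difference with IL-3 minus without IL-3 (vertical axis) of each KLF gene under the deposited scale, median centring, quantile normalization and subtraction of a loess trend (symbols), with dotted lines at 2-fold. Every member keeps its sign under the 4 scalings, and Klf6 moves farthest, to -1.84 with the loess trend subtracted.

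Scaling of the arrays altered sizes more than directions. After median centring, quantile normalization and subtraction of a loess trend, Klf6 and Klf3 remained the members at least 2-fold lower, where 0.682%, 0.808% and 1.03% of all genes were, and the signs of all 10 members were kept. The difference of Klf6 ran from -1.84 to -1.46 over these 3 scalings and that of Klf3 from -1.11 to -1.05. Klf10 ran from -0.93 to -0.86 and Klf11 from -0.79 to -0.72, so both stayed short of 2-fold.

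The rest of the KLF and SP family was measured for 15 of 16 genes, without Sp2, and 0 of these were at least 2-fold different in either direction. Of all genes, 0.657% were lower and 0.441% higher by that much, so a count of 0 among 15 is near the share of all genes. Their median difference was 0.07 and their mean -0.02, with 5 of 15 below 0. Over all genes the median was 0.04 and 40.1% were below 0. Over the 17 KLF genes measured, members included, the median was -0.05 and 10 were below 0. The 7 KLF genes that are no members had differences from -0.36 to 0.19.

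By group, the CtBP-binding repressors besides Klf3 were Klf8, with values of 0.02 with IL-3 and 0.38 without (difference -0.36), and Klf12, with a difference of 0.12. Among the activators, Klf1, the erythroid factor, differed by -0.01 and Klf5, a factor of epithelial and myeloid cells, by 0.08. Klf14, of the SIN3A-binding group, differed by 0.09. Klf15 and Klf17, outside the 3 groups, differed by 0.02 and 0.19. In each of the 3 groups the member at the low end was thus one of the 10 genes described here, which the choice of members fixes in part.

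Among the SP factors, Sp4 stood out at the low end, with values of 0.08 with IL-3 and 0.86 without. It was 1.72-fold lower with IL-3 (-0.78), between Klf10 and Klf11 in size. Sp3, which competes with Sp1 for GC boxes, was measured by 2 probe sets, with differences of -0.35 and -0.24, and the first of these was -0.62 with the loess trend subtracted. Sp1, the founding member, differed by -0.07 (-0.15 with that trend subtracted). Sp5, Sp6, Sp7, Sp8 and Sp9, which are known from embryonic patterning and bone, had differences between 0.04 and 0.28.

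**Figure D3:**
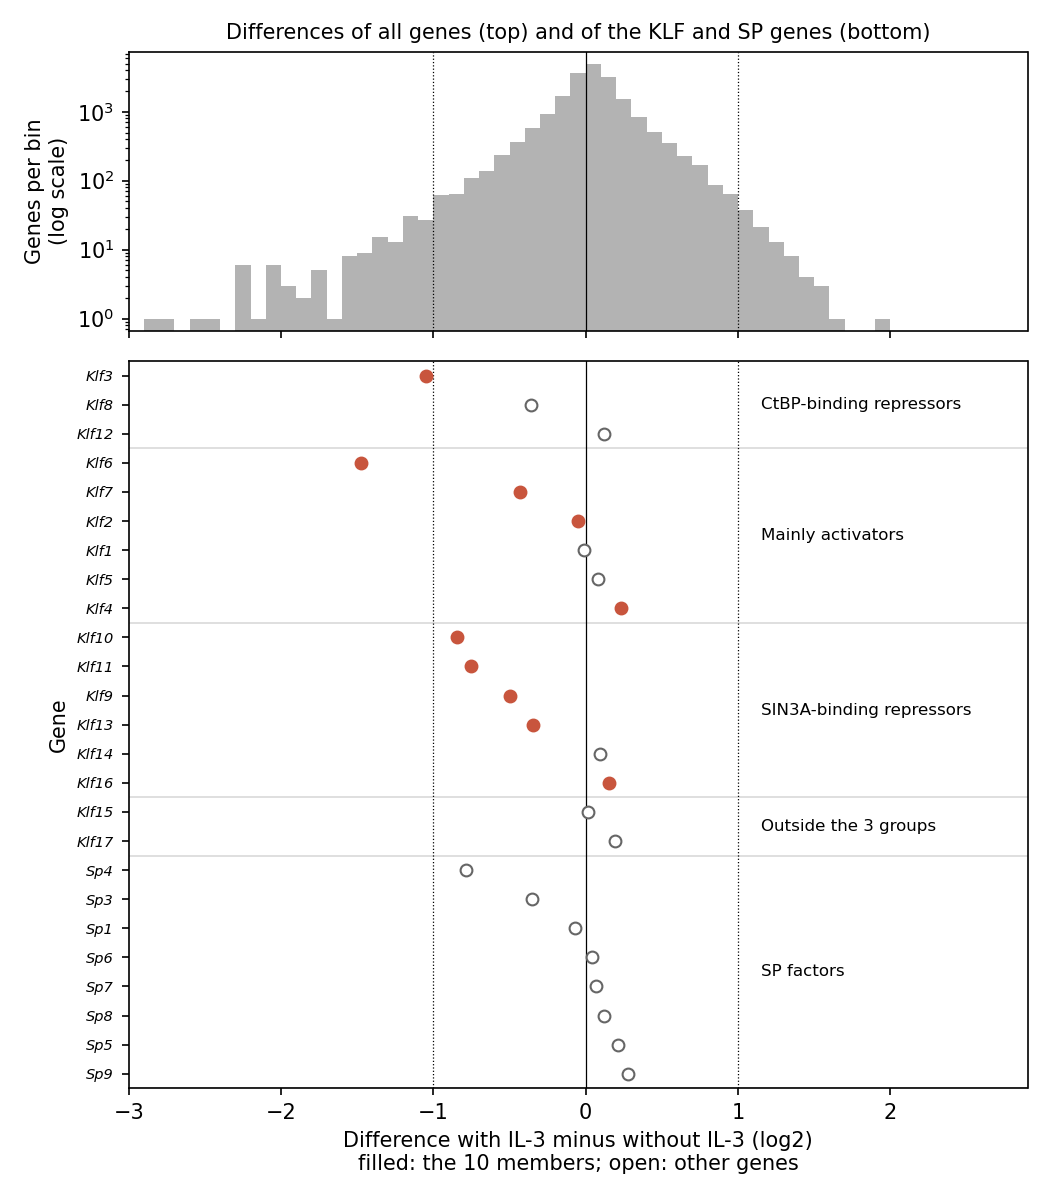
Upper panel, number of genes (log axis) by log2 difference with IL-3 minus without IL-3 over 19935 genes; lower panel, the same difference for each KLF and SP gene, grouped by the partner it recruits, with the 10 members filled and dotted lines at 2-fold. Klf6 and Klf3 lie beyond the lower 2-fold line, and Sp4 is the lowest of the open circles at -0.78.

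Genes known to act upstream of KLF genes were within 1.5-fold on the deposited scale, all 15 of them, where 2.71% of all genes were lower and 3.52% higher by that much. Mef2d passed that line after quantile normalization (-0.60) and with the loess trend subtracted (-0.75). The median difference of the 15 was -0.06, and 11 were below 0, a count that was 12 or 13 under the other scalings. Of all genes, 40.1% were below 0 as deposited. That share was 43.6%, 45.1% and 48.9% after median centring, quantile normalization and subtraction of the loess trend. The list was chosen with earlier results known, so nothing is read from these counts. The 3 largest differences belonged to Mef2d, a MEF2 factor, at -0.47, Tgfbr1, a receptor for transforming growth factor beta, at -0.34, and Tgfb1, its ligand, at 0.30. Mapk7, which encodes ERK5, differed by 0.004 and its activating kinase gene Map2k5 by -0.06 (-0.14 with the loess trend subtracted). Among the FOXO genes, Foxo1, whose product activates Klf2 in lymphocytes, differed by 0.02, Foxo3 by -0.08 and Foxo4 by -0.29. Egr1, an immediate early zinc finger gene like Klf6 and Klf10, differed by -0.08, and Srf by 0.04. The last 7 genes are named after their values were seen.

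Cofactors and ubiquitin ligases of KLF proteins went both ways. Of 16 genes, 9 were below 0 (40.1% of all genes were), 0 were at least 2-fold different, and the median was -0.02. That count of 0 is near the share of all genes, of which 0.657% were at least 2-fold lower and 0.441% higher. Hdac3, a histone deacetylase, was 1.56-fold higher with IL-3 (0.64) and Hdac2 1.29-fold higher (0.37), whereas Ep300, an acetyltransferase that works with activating KLFs, was 1.34-fold lower (-0.42). The difference of Hdac2 was 0.21 after quantile normalization and 0.06 with the loess trend subtracted. Ctbp1 and Ctbp2, the partners of Klf3, differed by 0.30 and 0.21. Sin3a and Sin3b, the partners of the SIN3A-binding group, differed by 0.01 and -0.01. These 4 partner genes are named after their values were seen.

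Reported KLF target genes were measured for 15 of 18. Their median difference was 0.03 and their mean -0.21, and the median was 0.01, -0.002 and -0.02 after median centring, quantile normalization and subtraction of the loess trend. Cd69, an early activation marker of lymphocytes, was the sole gene at least 2-fold different, at 2.07-fold lower with IL-3 (0.80 with IL-3 against 1.85 without). Of all genes, 0.657% were lower and 0.441% higher by that much. With the loess trend subtracted, Lgals3 also passed that line (-1.01), where 1.03% of all genes were at least 2-fold lower. The next in size were Itgb7, an integrin chain that Klf2 controls in lymphocytes, at 1.86-fold lower (-0.16 against 0.74), and Lgals3, the galectin-3 gene that Klf3 represses, at 1.81-fold lower (0.21 against 1.07). S1pr1, the receptor for lymphocyte egress that Klf2 activates, was 1.21-fold higher with IL-3 (-0.17 against -0.44), and Ccl5, the target of Klf13, was 1.39-fold lower (-0.65 against -0.17). At the 1.5-fold line 4 of the 15 were lower with IL-3 and 0 higher, where 2.71% of all genes were lower and 3.52% higher. These were Cd69, Itgb7, Lgals3 and Cdkn1b, the last at 1.54-fold lower (0.38 against 1.00). S1pr1, Ccl5 and Cdkn1b are named after their values were seen. The list was chosen with earlier results known, so nothing is read from its shares.

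**Figure D4:**
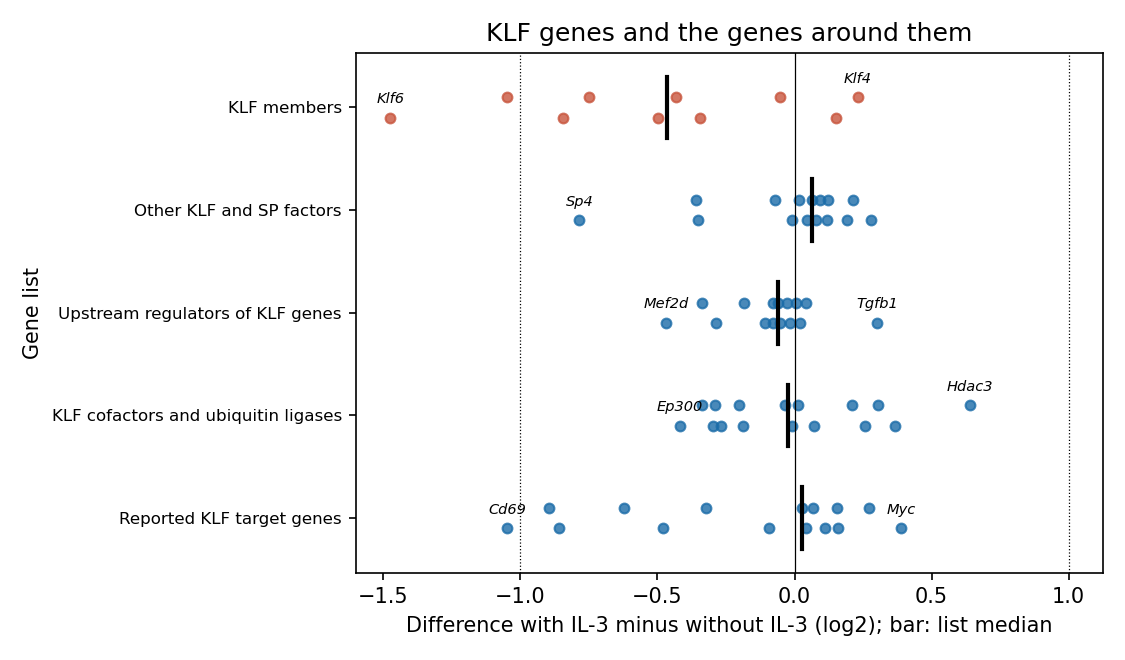
Log2 difference with IL-3 minus without IL-3 (horizontal axis) of each gene (points) in the KLF list and in 4 lists of related genes, with the median of each list as a bar and dotted lines at 2-fold. The KLF members have a median of -0.46 and the 4 other lists shown have medians between -0.06 and 0.07. The members were listed with this contrast known, which fixes that gap in part. Mast cell and basophil markers, not shown, had a median of -0.50.

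Markers of cell types were read on the same arrays, where 40.1% of all genes had a difference below 0. B-lineage markers, the class named for the line, had a median difference of 0.003 and a mean of -0.09 (10 genes, 5 below 0, values with IL-3 from -0.23 to 0.24 and without from -0.31 to 0.60). The largest differences were those of Ptprc at -0.73, Cd79a at -0.35 and Cd79b at -0.24, of which Ptprc is not confined to B cells. The median of this list was between -0.04 and -0.01 under the other scalings. Mast cell and basophil markers had a median of -0.50 (8 genes, 5 below 0, values with IL-3 from -0.58 to -0.08 and without from -0.28 to 1.88), and Fcer1a at -2.46, Cpa3 at -1.11 and Cma1 at -1.10 passed 2-fold on the lower side. Granulocyte and macrophage markers had a median of -0.11 (11 genes, 7 below 0, values with IL-3 from -2.15 to 0.28 and without from -0.63 to 0.98), and Ngp, Prg2, Epx and Itgam did so too (-2.87, -2.76, -2.09 and -1.08). T cell markers had a median of 0.08 and a mean of -0.06 (5 genes, 1 below 0), with Cd3g at -0.80, Cd3d at 0.22 and Cd4 at 0.16, and the erythroid markers measured were Epor at -0.33 and Klf1. Several mast cell and granulocyte genes thus differed in the direction of Klf6 and Klf3, but others in these lists did not. Tpsb2 (0.19), Tpsab1 (0.05), Hdc (0.003), S100a9 (0.38), Lyz2 (0.24), Mpo (0.17) and S100a8 (0.16) lay above 0, and are named after their values were seen. The genes passing 2-fold made up 37.5% and 36.4% of the 2 lists, against 0.657% of all genes on that side. The lists were chosen with earlier results known, so nothing is read from these shares. The part of mast cell and granulocyte genes in the KLF differences was not tested. Whether the defining markers were present cannot be read from values relative to a baseline.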

How the data were processed

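RNA was isolated with the Qiagen miRNeasy kit, made into biotin-labelled cDNA with an Ambion kit and put on Gene 1.0 ST arrays, per the labels' protocols. The authors deposited 28815 log values for each array, 1 to a probe set, taken here as log2 because no base is given. How the values were background-corrected, normalized and summarized is not given in the sources used here. The 2 values had opposite signs and equal size, within 1e-05, in 1760 probe sets (6.11%). Values relative to a median over these 2 arrays alone would do so in every probe set, so the baseline is not that median. What else the baseline rests on is not given. None of the KLF members was among them. The arrays' medians were -0.03 with IL-3 and -0.05 without.

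Probe sets with 1 gene symbol (21780) were used, and where a gene had several, the probe set highest on average, which gave 19935 genes. The difference was with IL-3 minus without IL-3, and a difference of 2-fold or more was counted. The number of arrays limits the precision, and no test was possible. The 10 gene lists, the members and the motifs were chosen with earlier results of these data known. Named genes are all KLF and SP genes and, of each other list, genes at least 2-fold different and the 3 largest. In these lists 1.5-fold served as a second line. The 9 alternatives covered scaling (loess span 0.3), probe set choice, filters on the deposited values, log base and fold. Python 3.11.15, pandas 2.3.3, statsmodels 0.14.6 and matplotlib 3.10.9 were used. The 2-fold calls of the main setting and the pooled SD were checked on simulated data. The other settings were run on these simulated data without a set criterion, and the motif search was not tested. Promoter windows came from RefSeq (GRCm38.p6).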

Additional observations from a re-analysis of the deposited data

How the results depend on the processing

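The 3 scalings and the log base, 4 of the 9 alternatives, could change the difference of a single member. Of the 40 differences recomputed under these, 32 moved by less than the scatter between probe sets (0.14), 8 moved by more and 0 changed sign. Median centring shifts all differences alike, by -0.01, which is less than the smallest of them (Klf2, -0.05), and natural logs multiply all alike. Neither could turn a sign. Under the 3 scalings the sole larger move was that of Klf6 with the loess trend subtracted (-1.84), and the other larger moves came from the natural logs. The choice of probe set could change no member, since each has 1, and the filters leave the value of a kept member as it is. The count of members at least 2-fold lower with IL-3 was 2 as reported and 1 when a gene had to reach the array median on both arrays. It was 4 with the values taken as natural logs and 4 with the line at 1.5-fold. The shares of all genes kept were, in the same order, 0.657%, 0.573%, 1.88% and 2.71%. The filter on both arrays kept 5 members, of which 5 had a difference below 0, and left out Klf3 through its value with IL-3. Of the 8376 genes it kept in all, 39.9% had a difference below 0. The median of the members was -0.62 with the 8 members that reached the median in at least 1 array and -0.67 with natural logs. On baseline-relative values such a filter acts partly on the difference it is meant to leave alone. The share of higher genes among those at least 2-fold different depended on the scaling, with 88 higher and 131 lower as deposited, 83 and 136 after median centring, 62 and 161 after quantile normalization and 29 and 205 with the loess trend subtracted. No paired analysis was possible because each group has 1 array.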

Other observations

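Most genes whose symbol is Zfp followed by a number encode zinc finger proteins of the same finger class as the KLFs, and this larger group was looked at after the KLF values were seen. Of 345 such genes, 199 (57.7%) had a difference below 0, against 40.1% of all genes, and their median was -0.04 against 0.04. The share below 0 was 58.8% after median centring, 60.9% after quantile normalization and 64.6% with the loess trend subtracted, where the share of all genes was 43.6%, 45.1% and 48.9%. At least 2-fold lower with IL-3 were 3 of them (0.87%, against 0.657% of all genes), Zfp36 at 2.50-fold, Zfp935 at 2.23-fold and Zfp982 at 2.20-fold. At least 2-fold higher were 0, against 0.441% of all genes. The count of lower genes was 4 after quantile normalization and 9 with the loess trend subtracted (2.61%, against 1.03% of all genes). Zfp36 encodes an mRNA-decay factor with fingers of another class. The highest of the group on the other side was Zfp280b, at 1.88-fold higher with IL-3 (1.06 with IL-3 against 0.15 without).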
